A study of Mus musculus with 8 samples.

Results

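Replication-dependent histone genes were examined in single mouse bone marrow progenitors. Members were all genes whose mouse symbol begins with Hist1h, Hist2h or Hist3h, or with the newer H1f, H2ac, H2bc, H3c and H4c names, together with Gm11336. Of 27318 genes in the count tables, 76 matched these names and 70 had counts: 8 H1, 20 H2A, 19 H2B, 11 H3 and 12 H4 genes. The models without counts were H1foo, H1fnt, Hist1h1t, Hist2h2aa1, Hist2h3c1 and Gm11398. H1f0 and H1fx match the names but are replacement linker histones made outside S phase. They were therefore described singly and kept out of the sums, so that 68 genes entered the sum of all members.

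The cells were LSK cells, the lineage-negative, Sca1-positive, Kit-positive fraction of bone marrow that holds the blood stem cells and early progenitors. They came from untreated mice of 8 to 16 weeks. The sorter recorded GFP from a Dach1 reporter, an allele made in C57BL/6 embryonic stem cells from 1 targeted clone. That allele carries a biotin tag at the end of Dach1 and an IRES-GFP behind the stop codon, and Flpe recombinase had removed its neomycin cassette. The protocols name both C57BL/6 and Dach1-GFP mice as marrow donors. Marrow was enriched for CD117 (Kit), stained for surface proteins and sorted 1 cell per well into 384-well plates for CEL-seq2, a 3′ counting method that primes on poly(A) tails. There were 8 plates in 2 sets, 4 named LC (LC187, LC188, LC189 and LC190) and 4 named LCE (LCE407, LCE408, LCE409 and LCE410). The labels do not give the animal behind a plate, so p-values over plates speak at most to the spread between plates, which may be technical. For the abundant histone sums the SE of edgeR draws on other genes and can be smaller than that spread.

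Of 2987 wells with counts and a sort record, 2712 cells were kept, 1360 on the LC plates and 1352 on the LCE plates. The median number of counts per cell ranged from 11586 to 13398 for LC and from 5627 to 7525 for LCE, so LCE values rest on fewer counts. Kit was counted in 67.2% to 85.0% of cells per plate and Ly6a, which encodes Sca1, in 23.8% to 43.8%. By their counts 350 cells carried markers of other lineages, 218 of them of the B lineage. All 8 plates share the same 383 well names, and the plates of a set differed by more than counting noise, with a chi-square of 4.28 to 33.4 per degree of freedom.

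A nucleosome is an octamer of the core histones H2A, H2B, H3 and H4, closed on the outside by the linker histone H1. Dividing cells make most of this protein in S phase, from many small intronless genes that lie in clusters. Their mRNAs are unusual in ending not in a poly(A) tail but in a conserved stem-loop, which the stem-loop binding protein SLBP holds during processing, translation and decay. Replacement histones such as H2AZ and H3.3 are also made outside S phase, from a few genes each, and their mRNAs end in poly(A) tails. In bone marrow most stem cells rest, and the progenitors derived from them divide often.

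Of the 76 gene models, 58 lie on chromosome 13, 10 on chromosome 3, 3 on chromosome 11 and 5 elsewhere. The stem-loop was found in 43 of them: 4 of 11 H1, 11 of 21 H2A, 10 of 20 H2B, 8 of 12 H3 and 10 of 12 H4 models. Of 65 coding members with counts, 17 have a model that ends within 30 bases of the stop codon, among them 7 of 17 H2A genes. A model that ends so early cannot show a stem-loop, so its absence from a model does not mean that the gene lacks it. Some stem-loops are shown because mRNAs without a poly(A) tail end there. The 12 bases before each are in lower case and the stem-loop is in capitals, and the genes are those with the most counts that hold one, or that differ in the results.
Hist1h1e: caacaacccaaaGGCTCTTTTCAGAGCC
Hist1h2ap: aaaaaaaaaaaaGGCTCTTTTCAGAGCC
Hist1h2ac: ttcaaacccaaaGGCTCTTTTCAGAGCC
Hist2h2ac: cgaatccaaaaaGGCTCTTTTTAGAGCC
Hist1h2bh: tcttaacccaaaGGCTCTTTTCAGAGCC
Hist1h3c: tatttaaaaaaaGGCTCTTTTAAGAGCC
Hist1h4i: atgctacttaaaGGCCCTTTTTAGGGCC
Hist1h4d: ccaaaaaccaaaGGCCCTTTTCAGGGCC
The stem-loop is nearly the same across types, while the bases before it differ between genes. Several models run on past the stem-loop, by 2010 bases in Hist1h2ac, 1214 in Hist1h2bh and 1153 in Hist1h1e, against 3 in Hist1h2ap. The Hist1h2bc model holds 742 bases after the stop codon and no stem-loop. Hist1h2ap has a run of A before the stem-loop. At any place in the transcript, a run of 10 or more A was found in 3 of the 21 H2A models, 1 of the 20 H2B models and no H1, H3 or H4 model. The runs of Hist1h2ap and Hist1h2ao lie directly before the stem-loop, and those of Hist1h2ac and Hist1h2be lie after it. Whether such a run was primed in these libraries was not tested.

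Copies of 1 type are so alike that a short read often cannot tell them apart. Over the 14 H2A genes of equal coding length, the median identity of the coding sequence between pairs was 97.2%, and it was 97.2% for H2B, 97.6% for H3 and 94.7% for H4. The last 60 coding bases, stop codon included, are shown because a 3′ method reads near them. Capitals mark the letters that differ from Hist1h2ap, the member with the most counts.
Hist1h2ap: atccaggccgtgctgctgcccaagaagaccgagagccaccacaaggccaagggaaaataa
Hist1h2ao: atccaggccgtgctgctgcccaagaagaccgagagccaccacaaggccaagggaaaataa
Hist1h2ag: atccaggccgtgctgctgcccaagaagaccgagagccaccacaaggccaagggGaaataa
Hist1h2ac: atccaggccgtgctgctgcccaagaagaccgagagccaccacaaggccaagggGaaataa
Hist1h2an: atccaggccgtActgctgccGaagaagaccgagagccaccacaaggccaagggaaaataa
Hist1h2af: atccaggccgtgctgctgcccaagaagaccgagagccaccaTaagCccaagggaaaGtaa
Hist2h2aa2: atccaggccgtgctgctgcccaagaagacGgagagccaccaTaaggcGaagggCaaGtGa
Hist1h2ap and Hist1h2ao end in the same 60 bases, and Hist1h2ag, Hist1h2ac, Hist1h2ae and Hist1h2ad share another ending that differs by 1 base. Of the 50-base stretches in a member's transcript, a median of 67.6% for H2A, 57.2% for H3, 44.9% for H2B, 40.0% for H4 and 0% for H1 were also found in another member. How reads that fit several copies were assigned is not given in the sources used here, and 5 members with counts, among them Gm11336, Hist1h2aj and Hist1h2al, are annotated as pseudogenes. Values of single H2A, H2B, H3 and H4 genes are therefore uncertain, and the sums per type are the firmer measure. For the same reason, counts and medians of members below do not stand for independent genes.

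H2A made up nearly all of the histone RNA that was counted. The 68 summed members held 206718 counts, 0.736% of all counts, and H2A held 197045 of these, or 95.3% (93.9% to 97.2% per plate). H1 held 3240 counts, H2B 3081, H4 2016 and H3 1336, although a nucleosome contains equal numbers of the core histones. Summed H2A stood at 7565, 6235, 7151 and 5868 normalised counts (CPM, scaled to equal totals) on LC187, LC188, LC189 and LC190, a mean of 6705 ± 788 (SD, n = 4). On LCE409, LCE407, LCE408 and LCE410 it stood at 6932, 7953, 6957 and 9062 CPM, a mean of 7726 ± 1010 (SD, n = 4). The 2 sets overlapped for H2A.

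**Figure D1:**
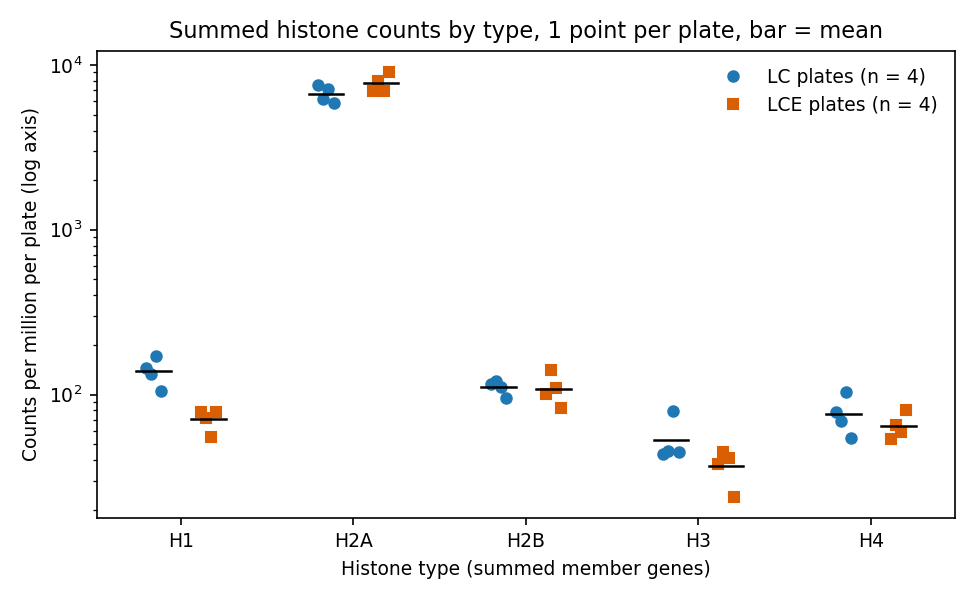
Level of each histone type per plate, in CPM on a log axis; points are plates, coloured by set, and bars are means. H2A lies at 5868 CPM or more on every plate, and the other types reach at most 170.5 CPM.

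Among the type sums only that of the linker histone H1 did not overlap between the plate sets. Among all 19021 genes with at least 10 counts, 28.7% did not overlap either, 19.5% with LC higher. The 6 summed H1 genes stood at 144, 134, 170.5 and 105 CPM on LC187, LC188, LC189 and LC190, and at 78.0, 71.9, 55.0 and 78.2 CPM on LCE409, LCE407, LCE408 and LCE410. No LCE plate reached the lowest LC plate. Hist1h1b, which encodes the S phase linker histone H1.5, had 837 counts and stood at 40.8 ± 4.69 CPM on LC plates against 7.76 ± 1.52 on LCE plates (SD, n = 4 each). Hist1h1e, the H1.4 gene, overlapped between the sets at 53.0 ± 15.3 and 33.6 ± 6.84 CPM. H2B (111 ± 10.6 and 108 ± 24.1 CPM), H3 (53.2 ± 17.5 and 37.0 ± 9.12) and H4 (76.5 ± 20.9 and 64.7 ± 11.8) overlapped as well.

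Within H2A, Hist1h2ap took 49212 counts, 24.98% of the type, followed by Gm11336 with 22665, Hist1h2ag with 22038 and Hist1h2an with 19585. The lowest counts were 84 for Hist1h2aa and 68 for Hist2h2ab. The share of copies differed between the plate sets. Hist1h2ab was at 48.9 to 128.5 CPM on LC plates and 6.56 to 11.8 CPM on LCE plates, and Hist2h2aa2 at 47.8 to 106 and 12.9 to 19.3 CPM. Hist1h2ac went the other way, with 411 to 539 CPM on LC plates and 737 to 1064 on LCE plates, as did Hist1h2ae and Hist1h2ag. In all, 12 members were higher on every LC plate than on any LCE plate, and 4 were higher on every LCE plate. Among all 19021 genes with at least 10 counts, 28.7% did not overlap between the sets (19.5% LC higher, 9.26% LCE higher), so these counts of members lay no higher than among genes in general. Since set, depth and counting of near-identical copies cannot be told apart here, these are given as levels only.

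Most H2A genes stand head to head with an H2B gene and share a promoter with it. There were 15 such pairs, with 172 to 305 bases between the starts, and the H2A partner had more counts in all of them except Hist1h2aa and Hist1h2ba (84 and 148 counts). Hist1h2ap had 49212 counts and its partner Hist1h2br 19. Hist1h2ac had 17258 and its partner Hist1h2bc 918, the most of any H2B gene.

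Hist1h2ac and Hist1h2bc start 250 bases apart, and the window between them is shown because the 2 genes changed in opposite directions in several comparisons. It is the 250 bases before the start of Hist1h2ac, from RefSeq (H2ac6, GRCm38.p6, chr13:23683960-23684209, minus strand). Capitals mark CCAAT on either strand, ATTTGCAT on either strand, and TATAAA.
Hist1h2ac: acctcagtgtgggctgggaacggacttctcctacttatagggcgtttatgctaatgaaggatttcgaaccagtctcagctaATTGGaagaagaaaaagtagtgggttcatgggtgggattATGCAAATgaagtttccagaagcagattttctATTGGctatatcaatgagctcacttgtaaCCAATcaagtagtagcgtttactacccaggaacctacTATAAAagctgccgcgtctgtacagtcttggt
The matches begin 169, 130, 98, 69 and 32 bases before the start. Of 63 members matched to a RefSeq promoter of 300 bases, 54.0% held TATAAA against 14.2% of 27025 promoters, 85.7% held CCAAT against 37.9%, and 20.6% held ATTTGCAT, the octamer motif, against 1.75%, both strands searched. CCAAT was in all 18 H2A, 17 H2B and 10 H3 promoters and in 27.3% of the 11 H4 promoters, and ATTTGCAT only in H2A (38.9%) and H2B (35.3%) promoters. These are matches of letters and not sites of binding.

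H2A RNA was spread unevenly over cells. Between 90.5% and 99.7% of cells per plate had an H2A count, but the tenth of cells with the highest H2A share held 37.5% to 40.9% of the H2A counts of an LC plate and 75.2% to 85.0% of those of an LCE plate. The median cell had 2012 to 2736 H2A CPM in the LC set and 927 to 1845 in the LCE set. H2A reached 1% of a cell's counts in 299 of 1360 LC cells and 152 of 1352 LCE cells, hereafter H2A-rich cells. Across cells of a plate, Hist1h2ap followed the rest of H2A with a median Spearman rho of 0.82 (LC) and 0.66 (LCE). Depth is common to all genes of a cell, and H2A CPM itself followed the number of counts per cell (0.37 and 0.21). Hist1h2bc did not follow H2A (−0.03 and 0.06).

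To relate histone RNA to the cell cycle, cells were ranked within a plate by the share of their counts from 29 S phase genes, such as Mcm and Pcna genes, and from 28 G2M genes, such as Top2a and Ccnb1. Neither list contains a histone gene. S list cells were in the top tercile for the first and not the second list, G2M list cells the converse, and cells with neither lay at or below the median in both. These classes are ranges of a score, and 984 of 2712 cells lay within 0.05 in rank of one of their limits. Genes of the lists were not tested.

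Of these 3 classes G2M list cells had the most histone RNA, several fold above cells with neither, and S list cells had less. All members summed stood at 2724, 2032, 2438 and 1916 CPM in cells with neither on LC187, LC188, LC189 and LC190, and at 11980, 9780, 12050 and 9778 CPM in G2M list cells. The LCE plates LCE409, LCE407, LCE408 and LCE410 gave 2182, 2057, 1437 and 2069 CPM in cells with neither and 12900, 11920, 6854 and 17240 CPM in G2M list cells. The 2 classes did not overlap in either set. The median cell moved too: it held 8918 to 11230 H2A CPM in G2M list cells and 1341 to 1855 in cells with neither on LC plates, and 1354 to 3024 and 646.7 to 1815 on LCE plates, higher on 8 of 8 plates. On LCE plates the median thus differed less than the sum. The rise in log2 was 2.26 (SE 0.03, adjusted p = 1.40e-77, edgeR quasi-likelihood test, Benjamini-Hochberg) on LC plates and 2.60 (SE 0.04) on LCE plates. With robust edgeR, in which a row keeps more of its own spread, the LCE rise had SE 0.175 and adjusted p = 0.0252. The mean of the per-plate ratios was 4.80-fold on LC plates and 6.07-fold on LCE plates, higher in 8 of 8 plates (exact two-sided sign-flip permutation p = 0.0078, the smallest 8 plates allow, adjusted 0.0156 over 8 such tests).

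**Figure D2:**
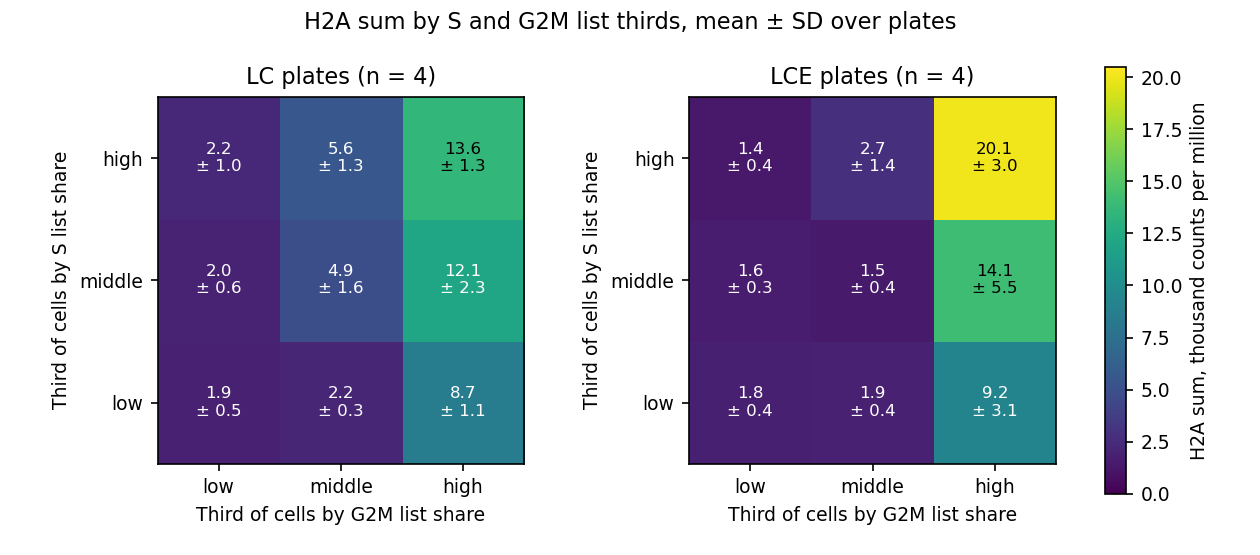
Mean H2A level in CPM over the plates of each set, for cells split by terciles of the S list share and terciles of the G2M list share within a plate. On both sets the level is highest in the top tercile for both lists and low wherever the G2M share is in its lowest tercile.

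S list cells stood lower than G2M list cells on every plate, at 6225, 3719, 4514 and 3509 CPM on the LC plates in the same order and 2853, 2259, 912.8 and 3173 CPM on the LCE plates. Against G2M list cells the log2 difference was −1.30 on LC plates (SE 0.05, adjusted p = 1.18e-20, edgeR) and −2.41 on LCE plates (SE 0.04). The LCE difference had SE 0.109 and adjusted p = 1.05e-04 with robust edgeR. Against cells with neither, S list cells rose by 0.95 on the log2 scale on LC plates (SE 0.04, adjusted p = 1.12e-21, edgeR). On LCE plates the value was 0.22, with adjusted p = 1.26e-06 by edgeR, 0.734 with robust edgeR and 0.981 with DESeq2, and LCE408 went the other way. Without LCE410 it was 0.05. The median S list cell held less H2A than the median cell with neither on 4 of 4 LCE plates, at 1479, 1031, 554.9 and 1089 against 1815, 1558, 646.7 and 1357 CPM on LCE409, LCE407, LCE408 and LCE410. The difference between the sets was −0.75 (adjusted p = 2.06e-06, edgeR; 0.684 with robust edgeR), and −0.00 with cells thinned to 3000 counts. H4 rose by 0.86 on LCE plates (adjusted p = 0.0284, edgeR), a call that ended without cells of other lineages (0.77, adjusted p = 0.0801), and H2B fell by 1.19 on LC plates (adjusted p = 1.73e-07, edgeR).

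Markers of other lineages moved with these classes. From G2M to S list cells on LCE plates both B lineage markers tested, of 8 listed, fell, Cd79b by 0.97 and Ebf1 by 0.93, and the B lineage sum was 201 to 386 CPM in G2M list cells and 98.8 to 152 CPM in S list cells. The plasma cell marker Jchain fell by 2.04 there. Against cells with neither, in G2M list cells, it fell by 3.6 on LC plates and rose by 1.66 on LCE plates by edgeR, the latter with adjusted p = 0.557 in robust edgeR, and the difference between the sets was 5.21. Without cells of other lineages the histone difference was 2.36 and 2.40 for G2M list cells against neither on LC and LCE plates, and −1.47 and −2.16 for S against G2M list cells.

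In the split of cells by both lists at once the level was highest where both shares were high. On LC plates H2A stood at 13610 ± 1332 CPM (SD, n = 4 plates) in cells in the top tercile for both lists, at 8652 in cells in the top tercile for G2M and the lowest for S, and at 2249 in cells in the top tercile for S and the lowest for G2M. On LCE plates the values were 20090 ± 3006, 9248 and 1422 CPM. By quintiles of the G2M share H2A went from 1795 to 2478, 4448, 9819 and 11500 CPM on LC plates, and from 1534 to 1641, 1835, 2989 and 23240 CPM on LCE plates. On LCE plates nearly all of the rise lay in the top quintile. H2A-rich cells numbered 151 of 312 G2M list cells, 32 of 312 S list cells and 3 of 352 cells with neither on LC plates, and 45 of 237, 4 of 237 and 2 of 377 on LCE plates. With cells thinned to 3000 counts the mean shares per plate were 46.7%, 9.88% and 0.830% on LC plates and 20.2%, 1.68% and 0.255% on LCE plates, near the unthinned 48.4%, 10.2% and 0.824% and 18.6%, 1.64% and 0.510%.

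By type, H2A, H3, H4 and H1 rose in G2M list cells in both sets, while H2B went in opposite directions in the 2 sets. H2A rose by 2.43 and 2.70 on the log2 scale on LC and LCE plates. H3 rose by 1.20 (SE 0.19, adjusted p = 5.05e-07) and 2.09 (SE 0.30, adjusted p = 6.00e-10) on the log2 scale on LC and LCE plates, by edgeR. H4, its dimer partner, rose by 0.93 (SE 0.16) and 1.94 (SE 0.235), and linker H1 by 0.81 (SE 0.11) and 0.72 (SE 0.19). On LCE plates the calls for H3 and H1 ended with DESeq2 (adjusted p = 0.695 and 0.899). H2B fell by 0.44 on LC plates (SE 0.11, adjusted p = 0.0032, edgeR) and rose by 0.94 (SE 0.15, adjusted p = 2.86e-08, edgeR) on LCE plates, a difference of 1.36 (SE 0.19, adjusted p = 1.66e-07, edgeR interaction; 1.40e-09 with robust edgeR). Without Hist1h2bc the LC value was 0.07, and the LC call also ended without LC187 (−0.34) and with DESeq2 (adjusted p = 0.09). The LCE call for H2B ended with DESeq2 as well (adjusted p = 0.061).

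Of 34 members tested on LC plates, 21 rose and 1 fell in G2M list cells, where 14.1% of 10409 genes were called (7.83% higher, 6.23% lower), and the members' median was 2.02 against a median near 0 for all genes. Of 18 tested on LCE plates, 13 rose and none fell, where 2.9% of 6958 genes were called, 1.93% higher. Hist1h2ap rose by 2.38 and 2.45 on the log2 scale, Hist1h2ac by 2.45 and 2.73, Hist1h2af, an H2A gene of the chromosome 13 cluster, by 2.60 and 3.23. Hist1h1b rose by 1.70 on LC plates, from 9.57, 26.2, 18.5 and 16.6 CPM to 55.7, 55.9, 56.5 and 57.8 CPM on LC187, LC188, LC189 and LC190. Hist1h3c rose by 2.34 and Hist1h4k by 1.87 on LC plates, and Hist1h4i by 1.61 on LCE plates. No single H3 gene passed the filter on low counts on the LCE plates.

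S list cells differed from cells with neither in 19 of 29 members on LC plates, 16 higher and 3 lower, where 10.5% of 10251 genes were called (6.07% higher, 4.4% lower). The risers were H2A genes and Hist1h1b, which rose by 0.93, and the members' median was 0.95. On LCE plates 4 of 14 rose and none fell, where 6.85% of 7020 genes were called (4.5% higher). None of these 4 was called with DESeq2 (adjusted p = 0.888 to 0.977). For the difference between the sets 7 H2A genes were lower and none higher, where 0.167% of 8393 genes were called (0.0715% higher, 0.0953% lower). Of these, Hist1h2ag (adjusted p = 0.642) and Hist1h2an (0.121) were not called with robust edgeR. With DESeq2 only Hist1h2ap was called (adjusted p = 0.00111). Compared with G2M list cells, 22 of 34 members were lower on LC plates and none higher (3.48% of 10630 genes called, 2.10% lower), and 15 of 17 were lower on LCE plates (6.42% of 6166 genes called, 2.48% lower). The difference between the sets was −1.10 (adjusted p = 5.60e-16, edgeR; 0.117 with robust edgeR), with 11 H2A genes lower (0.331% of 9067 genes called, 0.21% lower), and without cells of other lineages it was −0.68. On LC plates Hist1h4d fell by 2.02 and Hist1h1e by 0.99 from G2M to S list cells.

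The replacement linker histone H1f0 took another course. It stood lower in S list cells than in cells with neither on LC plates and fell by 1.39 in log2 (SE 0.23, adjusted p = 4.00e-05, edgeR), while in G2M list cells its values were −0.08 and 0.50, neither called. Against G2M list cells it fell by 1.33 on LC plates and 1.07 on LCE plates.

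Some other genes of histone supply rose in S list cells. On LC plates 11 of 20 chaperone and deposition genes rose, where 6.07% of 10251 genes were called higher. The risers included Nasp (log2 0.65), which binds soluble H3 and H4, and Mcm2 (0.98), a helicase subunit that also holds histones. Chaf1a (1.06), a subunit of the CAF-1 deposition complex, rose too. Slbp rose by 0.67 and Ccne2, a cyclin that drives S phase entry, by 2.12. Cells were classed by genes of a phase, so rises of other genes of that phase, such as Mcm2 and Ccne2, are not independent results. In G2M list cells Slbp was not called, while H2afx, the H2A variant made from 1 gene with both kinds of mRNA end, rose by 2.40 and 2.36 on LC and LCE plates and Cenpa, the centromeric H3, by 1.89 and 2.02. On LCE plates Slbp (0.74), Nasp (1.18), Mcm2 (1.11) and Chaf1a (1.41) also rose in S list cells. Mms22l (1.20), Rbbp4 (0.53) and Rbbp7 (0.38) rose there too. The other chaperone and deposition genes tested on LCE plates, such as Hat1, Asf1a and Chaf1b, were not called. Among all 7020 genes 4.5% were called higher there.

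Forward scatter (FSC-A), which grows with cell size, was recorded on the LCE plates only. Histone RNA was about 5 times as high in the tercile of cells with the highest forward scatter as in the tercile with the lowest. All members summed stood at 2863, 2575, 2229 and 4084 CPM in the low tercile of LCE409, LCE407, LCE408 and LCE410, and at 13010, 15460, 13260 and 17600 CPM in the high tercile. The lowest of the high terciles lay above the highest of the low terciles. High-tercile cells also had more counts, with medians of 7846 to 10256 per cell against 4630 to 5989.5, and with cells thinned to 3000 counts the value was 2.35. The log2 difference was 2.40 (SE 0.04, adjusted p = 1.01e-86, edgeR; 9.02e-04 with robust edgeR), and the per-plate ratio 5.14-fold, higher in 4 of 4 plates (exact two-sided sign-flip permutation p = 0.125, the smallest 4 plates allow).

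**Figure D3:**
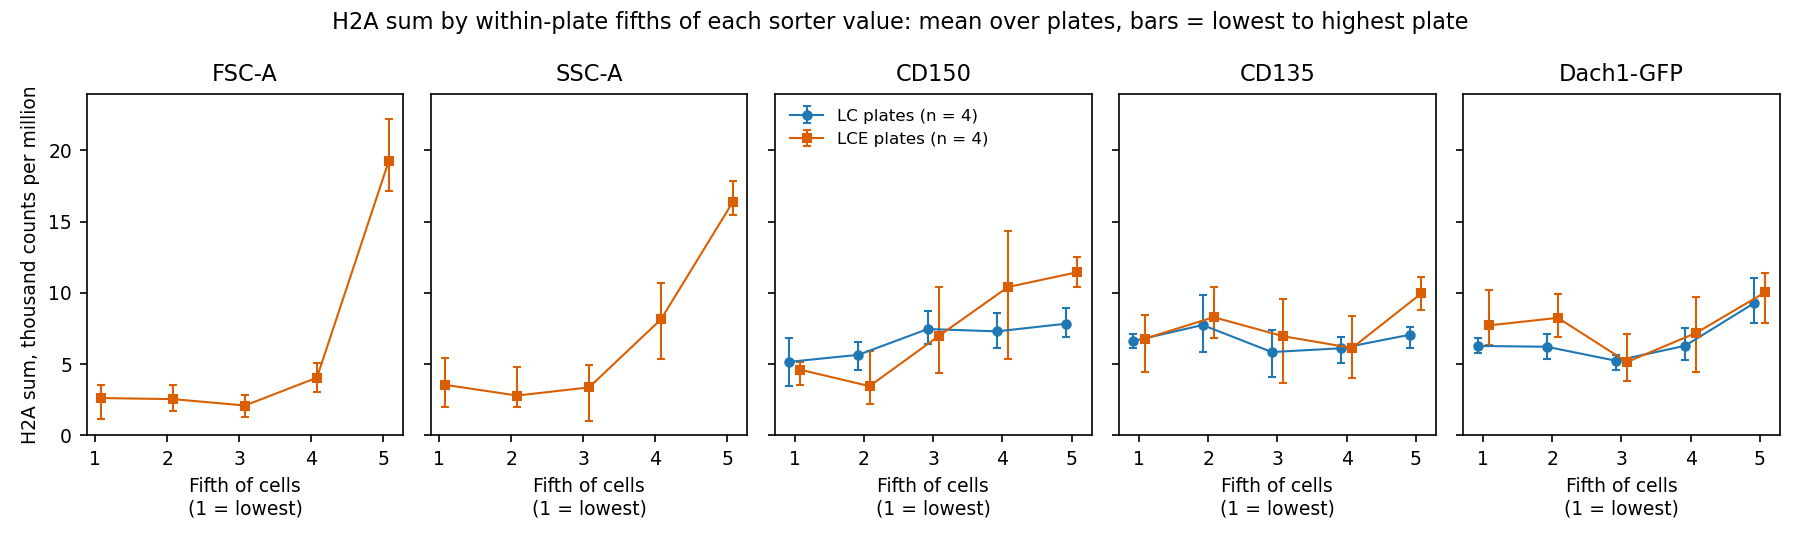
Mean H2A level in CPM by quintiles of each sorter value within a plate, with lines for the means of the LC and LCE plates and bars from the lowest to the highest plate. The forward scatter line reaches 4046 CPM in the fourth quintile and 19280 CPM in the top one, and scatter has LCE plates only.

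The difference lay at the top of the range. By quintiles of forward scatter H2A stood at 2617, 2543, 2093, 4046 and 19280 CPM. H2A-rich cells numbered 9 of 448 in the low tercile and 138 of 448 in the high tercile, a mean of 1.66% and 31.5% per plate after thinning (2.01% and 30.8% before). The median cell of the high tercile held 1135 to 2498 H2A CPM and that of the low tercile 709.5 to 1809, higher on 4 of 4 plates but by less than the sums.

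H3 rose by 1.45 (SE 0.22, adjusted p = 4.82e-08, edgeR) and H4 by 1.43 (SE 0.16) on the log2 scale in cells with high forward scatter. H3 went from 27.3, 17.3, 32.7 and 7.31 CPM to 49.7, 76.2, 59.7 and 41.6 CPM on LCE409, LCE407, LCE408 and LCE410, without overlap. H1 rose by 0.47 (SE 0.155), and that call ended without LCE407 (0.35), without LCE408 (0.31) and with DESeq2 (adjusted p = 0.267). The H2B sum did not pass the test (−0.03). Of 25 members tested 20 rose and 2 fell, where 18.1% of 8936 genes were called (11.1% higher, 6.98% lower), and the members' median log2 difference was 2.38 against −0.02 for all genes. Of the 20 genes with the largest called rise 14 were H2A genes, led by Hist1h2af (3.01) and Hist1h2ai (3.0). Of the 50-base stretches of these 2 transcripts 79.7% and 90.1% also lie in another member, so these copies are not independent results. Hist1h2ap rose by 2.25 and Hist1h4i by 0.94, while Hist2h2aa2, from the chromosome 3 cluster, rose by 0.96 and the pseudogene model Hist1h2al by 1.20.

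The 2 members that fell were Hist1h2bc, by 1.12 (SE 0.24, adjusted p = 2.05e-04, edgeR), and H1f0, by 0.88 (SE 0.16, adjusted p = 1.06e-05, edgeR). Hist1h2bc stood at 45.5, 25.9, 54.4 and 34.7 CPM in the low tercile and 18.3, 23.2, 21.3 and 7.66 CPM in the high tercile of LCE409, LCE407, LCE408 and LCE410. It was lower on 4 of 4 plates, by little on LCE407, and the terciles did not overlap. Over all kept cells Hist1h2bc had only 93, 73, 69 and 45 counts on these plates in the same order, so each tercile value rests on few counts.

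Genes of the cell cycle moved with forward scatter too. All 28 of 28 G2M list genes and 26 of 29 S list genes rose, with medians of 1.505 and 0.95, and the G2M list summed to 501 to 909 CPM in the low terciles and 1498 to 2076 CPM in the high terciles. Among cells at or below the median for both lists, the histone difference between terciles of forward scatter was −0.09 in log2 (adjusted p = 0.807, edgeR), and none of the 10 members tested there was called. The part of the cycle genes in the difference among all cells was not tested. Of other histone genes H2afx rose by 2.06 and H2afz by 1.15, and of the chaperones Asf1b rose by 1.48 and Nasp by 0.86. In all 9 of 20 chaperone and deposition genes rose and 1, Atrx, fell, while 1 of 14 histone RNA processing genes rose, Slbp, by 0.59. Among all 8936 genes 11.1% were called higher and 6.98% lower.

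Side scatter (SSC-A), a measure of granularity also recorded on LCE plates only, gave a like picture. All members summed stood at 3262, 2235, 3414 and 4669 CPM in the low tercile and 12850, 14450, 13460 and 14810 CPM in the high tercile of LCE409, LCE407, LCE408 and LCE410. The terciles did not overlap. The log2 difference was 2.09 (SE 0.06, adjusted p = 3.61e-36, edgeR; 0.0197 with robust edgeR), or 4.22-fold per plate and higher in 4 of 4. Of 25 members tested 16 rose and 3 fell, where 7.45% of 9019 genes were called (5.08% higher, 2.37% lower). Hist1h2ap rose by 1.97 and Hist1h2ac by 2.20. The median cell held 1104 to 1783 H2A CPM in the low tercile and 1197 to 2081 in the high tercile. It was higher on 4 of 4 plates but by less than the sums. H2A-rich cells numbered 11 of 448 in the low tercile and 124 of 454 in the high tercile.

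The 3 members that fell with side scatter were Hist1h2bc, Hist1h2bh and Hist1h1c, the H1.2 gene. Hist1h2bc stood at 73.4, 52.4, 49.8 and 44.7 CPM in the low tercile and 15.7, 13.2, 25.6 and 8.25 CPM in the high tercile, a fall by 1.81 on the log2 scale (SE 0.23, adjusted p = 1.90e-08, edgeR). Hist1h2bh fell by 1.08 and Hist1h1c by 0.92. The H2B sum fell by 0.75, and without Hist1h2bc by 0.36, which did not pass the test. B lineage markers moved with side scatter: 8 of 8 were lower in the high tercile, with a median of −1.83, and their sum was 260 to 638 CPM in the low terciles and 72.9 to 177 CPM in the high terciles. Without the 350 cells of other lineages the difference for all members was 2.52, against 2.09 with them, and with side scatter corrected for forward scatter it was 1.44. Among cells low for both cycle lists it was −0.40 (adjusted p = 1.92e-06, edgeR), lower in the high tercile.

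CD150, the Slamf1 protein that marks blood stem cells and megakaryocyte-primed progenitors, was recorded on all plates. The sum of histone RNA was higher in the tercile of cells with the most CD150 on all 8 plates, and its difference was larger on the LCE plates. After correction for scatter, recorded on LCE plates only, the LCE value was 0.75 in log2, against 1.47 without it. On LC187, LC188, LC189 and LC190 all members summed stood at 7120, 5250, 6175 and 4134 CPM in the low tercile and 8949, 8360, 8411 and 7292 CPM in the high tercile. On LCE409, LCE407, LCE408 and LCE410 the low terciles stood at 4109, 3235, 4117 and 5322 CPM and the high terciles at 11740, 11020, 9788 and 13130 CPM. High and low terciles did not overlap in either set. The median cell held more H2A in the high tercile of each plate, but its difference was not larger on LCE plates. Its mean over plates went from 2021 to 3122 CPM on LC plates and from 1298 to 1785 on LCE plates. H2A-rich cells numbered 71 of 452 and 117 of 456 in the low and high terciles of LC plates. On LCE plates they numbered 18 of 449 and 88 of 452.

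The log2 difference of the sums for CD150 was 0.56 on LC plates (SE 0.04, adjusted p = 2.69e-09, edgeR) and 1.47 on LCE plates (SE 0.03). With robust edgeR, in which a row keeps more of its own spread, the adjusted p was 0.383 on LC plates and 0.027 on LCE plates. The per-plate ratio was 1.48-fold on LC and 2.75-fold on LCE plates, higher in 8 of 8 plates (exact two-sided sign-flip permutation p = 0.0078, adjusted 0.0156). The difference between the sets was 0.90 by edgeR (SE 0.07, adjusted p = 8.56e-13; 0.11 with robust edgeR) and 0.89 in the per-plate ratios (exact permutation p = 0.0286, the smallest 4 against 4 plates allow, adjusted 0.0572 over 6 comparisons). Of 33 members tested for that difference 12 were higher and none lower, all 12 H2A genes, where 0.635% of 10398 genes were called (0.49% higher, 0.144% lower).

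**Figure D4:**
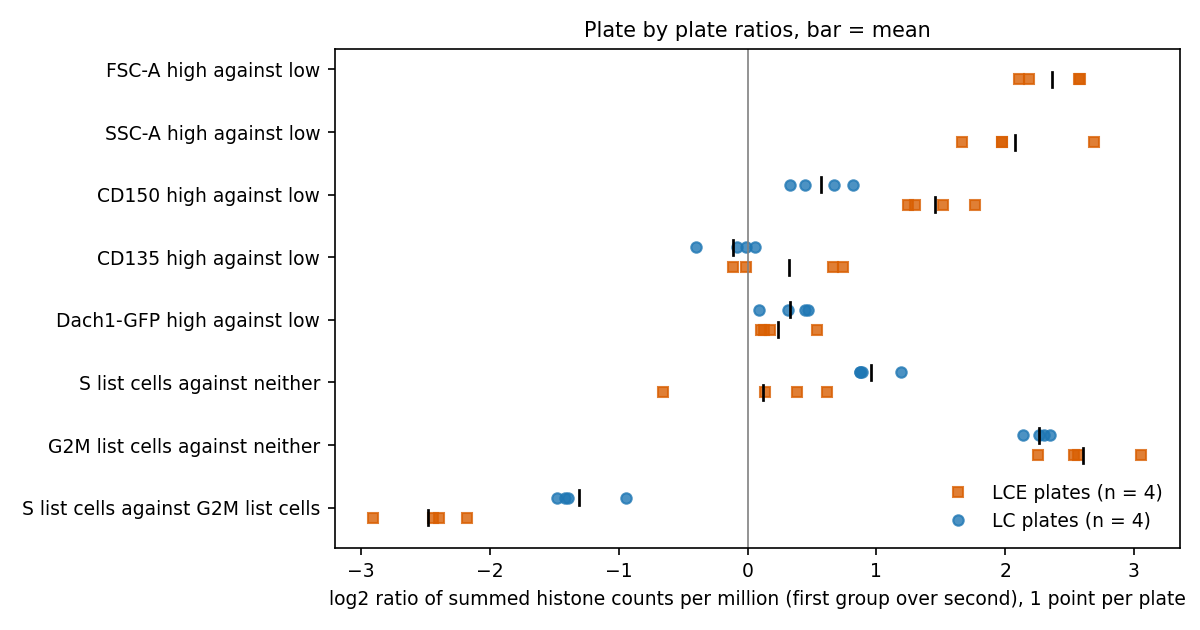
Log2 ratio of summed histone CPM, high over low tercile or first over second class, for each plate in each comparison, LC and LCE plates in separate colours. All 8 CD150 ratios and all 8 ratios of G2M list cells to cells with neither lie above 0, and the CD135 ratios lie on both sides of 0.

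Of 36 members tested on LC plates 13 rose with CD150 and none fell, all 13 H2A genes, where 0.684% of 11252 genes were called (0.56% higher, 0.124% lower). Of 24 tested on LCE plates 17 rose and 1 fell, where 5.11% of 8838 genes were called (3.5% higher, 1.62% lower), with medians of 0.55 and 1.42. Hist1h2ap stood at 1753, 1474, 1576 and 1034 CPM in the low terciles and 2172, 2431, 2146 and 1824 CPM in the high terciles of LC187, LC188, LC189 and LC190, a rise of 0.56. On LCE plates it rose by 1.45, Hist1h2af by 1.83 and Hist1h1e by 0.85. H1 rose in both sets (0.48 and 0.54), and H4 on LCE plates (0.78), while H3 gave 0.54 and 0.58 and was called in neither. With DESeq2 the H1 calls ended (adjusted p = 0.256 and 0.789), as did that of H4 (0.276). The member that fell on LCE plates was again Hist1h2bc, by 0.78 (SE 0.22, adjusted p = 0.0154, edgeR).

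G2M list genes moved with CD150: 4 of 28 were higher on LC plates and 23 on LCE plates, and their sum was 1842 to 2160 CPM in the low and 2508 to 2881 CPM in the high terciles of LC plates, and 689 to 963 and 1281 to 1767 CPM on LCE plates. No S list gene was called on LC plates and 14 of 29 rose on LCE plates. Among cells low for both lists the histone difference was 0.33 on LC plates (adjusted p = 0.617, edgeR) and −0.22 on LCE plates (adjusted p = 0.212), with none of 13 and 10 members tested called. The part of the cycle genes in the CD150 difference was not tested. Of the pathway genes H2afx rose by 0.47 and 1.26 on LC and LCE plates, and Slbp (0.46), E2f1 (0.97) and E2f2 (1.39) rose on LCE plates; the E2f genes encode activators of S phase genes.

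Summed over cells, histone RNA was slightly higher where Dach1-GFP was high. All members summed stood at 7536, 7003, 6890 and 6034 CPM in the low tercile and 10410, 7437, 9374 and 7508 CPM in the high tercile on LC187, LC188, LC189 and LC190, and at 7723, 9378, 7580 and 7937 against 8440, 10110, 8547 and 11520 CPM on LCE409, LCE407, LCE408 and LCE410. The terciles overlapped between plates, but each plate was higher in its own high tercile, 8 of 8 (exact two-sided sign-flip permutation p = 0.0078, adjusted 0.0156). The log2 differences were 0.30 (SE 0.04) and 0.22 (SE 0.03), with adjusted p = 4.85e-06 and 2.02e-07 by edgeR, 0.265 and 0.435 with robust edgeR, and 0.219 and 0.802 with DESeq2. Among single cells the median cell held more H2A in the high tercile on 4 of 4 LC plates and on 2 of 4 LCE plates, where it went from 2119 to 1726 CPM on LCE409 and from 1073 to 988.8 on LCE408. Across cells of a plate the median Spearman rho of GFP with H2A was 0.15 on LC plates and −0.03 on LCE plates. The difference between the sets in the sums was −0.08 (adjusted p = 0.802, edgeR), and no member was called for it, where 0.116% of 10314 genes were called (0.0776% higher, 0.0388% lower).

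Of 37 members tested on LC plates 11 rose with Dach1-GFP and none fell (4.0% of 11298 genes called, 2.12% higher), and of 25 on LCE plates 11 rose and none fell (5.49% of 8792 genes called, 2.31% higher and 3.18% lower). Most changes were small, such as 0.31 and 0.21 for Hist1h2ap. The largest was in H1fx, a replacement linker histone, which rose by 1.79 on LC plates (SE 0.23, adjusted p = 6.12e-06, edgeR) and 1.49 on LCE plates (SE 0.27, adjusted p = 3.71e-05, edgeR). H1f0 rose by 0.62 on LCE plates. H3 rose by 0.79 on LC plates, a call that ended without LC189 (0.60), and H2B fell by 0.41 on LCE plates, a call that ended with DESeq2 (adjusted p = 1.0). Of variant histones H2afy, the macroH2A1 gene, was lower with high GFP in both sets (−0.53 and −0.69).

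B lineage markers were lower where Dach1-GFP was high: 3 of 4 tested on LC plates and 7 of 7 on LCE plates, with sums of 28.7 to 250 against 20.97 to 69.7 CPM and 289 to 786 against 69.9 to 148 CPM. Both platelet markers tested, of 4 listed, were higher in both sets. Without the cells of other lineages the histone difference was 0.40 on LC plates and 0.56 on LCE plates. Of 28 G2M list genes 6 were higher on LC plates, and none of 27 tested on LCE plates. The part of these markers in the result was not tested. After correction for scatter the LCE value was −0.33 (adjusted p = 1.10e-16, edgeR).

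CD135, the Flt3 receptor of lymphoid-primed progenitors, went with histone RNA in different directions on different plates. All members summed stood at 8740, 7495, 7524 and 6374 CPM in the low tercile and 6637, 7067, 7464 and 6627 CPM in the high tercile on LC187, LC188, LC189 and LC190. On LCE409, LCE407, LCE408 and LCE410 they stood at 6580, 5684, 7921 and 8960 against 10400, 9497, 7334 and 8859 CPM. The high tercile was higher on 1 of 4 LC plates and 2 of 4 LCE plates (exact two-sided sign-flip permutation p = 0.4688 over 8 plates).

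By edgeR the CD135 difference was −0.10 on LC plates (adjusted p = 0.0964) and 0.34 on LCE plates (adjusted p = 8.99e-05, but 0.653 with robust edgeR, and 0.221 by edgeR without LCE409). None of 36 members was called on LC plates, where 9.52% of 11380 genes were called (4.94% higher, 4.58% lower), and 10 of 23 rose and 1 fell on LCE plates, where 3.85% of 8619 genes were called (2.2% higher, 1.65% lower). For the difference between the sets, 0.44, 7 H2A genes were higher (0.626% of 10377 genes called, 0.318% higher), none of them with robust edgeR. With robust edgeR 3 members were called on LCE plates: Hist1h2af (0.57), Hist1h2aj (0.43) and H1f0 (−0.74). H2afy was higher with high CD135 in both sets (0.95 and 0.74). B lineage markers were lower with high CD135, 4 of 7 tested on LC plates and 8 of 8 on LCE plates, where their sum was 256 to 473 CPM in the low and 60.7 to 161 CPM in the high terciles, and without cells of other lineages the LCE value was 0.65. The part of these markers in the CD135 values was not tested.

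**Figure D5:**
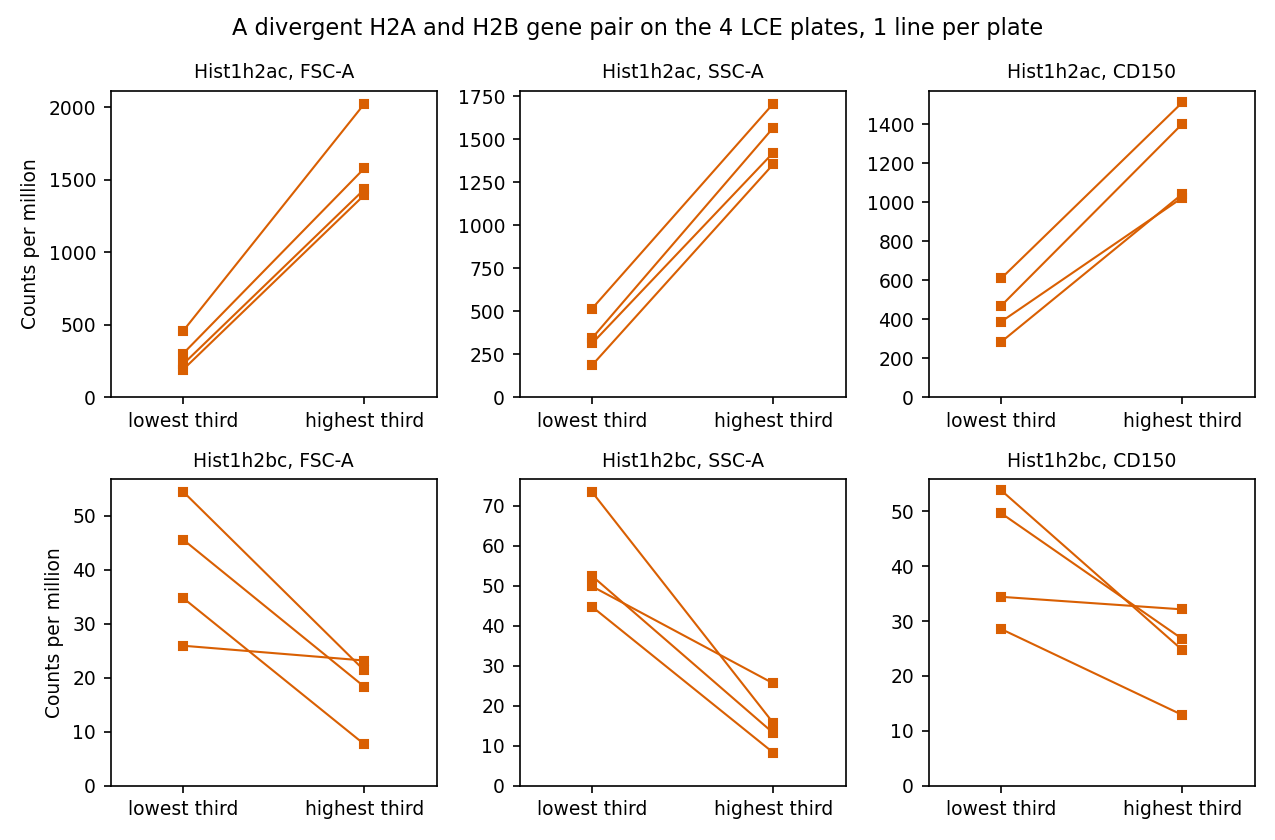
CPM of Hist1h2ac (top) and Hist1h2bc (bottom) in the lowest and highest tercile of cells by forward scatter, side scatter and CD150 on the 4 LCE plates, with 1 line per plate and each axis from 0. Every Hist1h2ac line rises and every Hist1h2bc line falls. Hist1h2bc had only 45 to 93 counts per LCE plate over all kept cells.

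Hist1h2ac and Hist1h2bc, the divergent pair, were set side by side. In cells with high forward scatter Hist1h2ac went from 300.5, 228, 190.5 and 457 CPM to 1579, 1434, 1395 and 2024 CPM on LCE409, LCE407, LCE408 and LCE410, a rise of 2.51, while Hist1h2bc fell by 1.12. On LC plates Hist1h2bc stood at 67.0, 73.0, 70.4 and 72.3 CPM in cells with neither list, at 28.3, 31.4, 17.1 and 6.63 CPM in S list cells and at 20.8, 33.5, 27.0 and 21.9 CPM in G2M list cells of LC187, LC188, LC189 and LC190. It was lower on every LC plate in both classes, by 1.82 (adjusted p = 9.85e-07) and 1.47 (adjusted p = 9.86e-09) on the log2 scale by edgeR, and the classes did not overlap with cells with neither. Hist1h2ac rose there by 1.15 and 2.45. On LCE plates Hist1h2bc stood at 43.8, 33.2, 43.0 and 29.7 CPM in cells with neither and 46.7, 49.3, 70.2 and 17.6 CPM in G2M list cells of LCE409, LCE407, LCE408 and LCE410, a value of 0.24 that was not called. The difference between the sets was 1.70 (SE 0.33, adjusted p = 4.17e-04, edgeR interaction). Hist1h2bc and, in the other direction, Hist2h2aa2 were the 2 members called for that difference, where 0.726% of 8397 genes were called (0.429% higher, 0.298% lower).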

How the data were processed

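CEL-seq2 libraries of sorted LSK cells were analysed from 8 plates. The deposited files hold counts per gene and well, per the file headers, and the sort records give fluorescence intensity, side scatter signal and forward scatter as the deposited cytometer values. The submitters' processing notes name GRCh38 although the gene identifiers are mouse, so the files' build is uncertain. Promoter windows and their motifs are those of RefSeq on GRCm38.p6, matched by the position of the start. All other positions and sequences given are those of the GENCODE mouse gene models, matched by gene identifier. Which aligner and counter were used, and whether molecular identifiers were collapsed, is not given in any source used here. Spike-ins were left out, and cells with at least 1000 counts, 500 genes and under 20% mitochondrial counts were kept. No doublet caller was run. Cells were ranked within a plate, and the lowest and highest tercile were summed per plate. Sums were tested with edgeR 4.0.16 in R 4.3.3 (quasi-likelihood, TMM, filterByExpr, plate as block), with library sizes from genes alone, Benjamini-Hochberg adjustment over all genes and 6 histone sums, and a threshold of 0.05. Both arms of a test come from the same plate, and their deviations correlated at 0.193 to 0.6. Plate ratios used a pseudocount of 1 CPM and exact sign-flip permutation tests. In simulated CD150 data, 84.8% (LC) and 85.6% (LCE) of tested genes changed by 1 on the log2 scale were recovered. In each set 9 unchanged genes were called. No histone member was among the changed genes, so the simulation does not speak to the histone sums. Named were the type sums, the 3 members with most counts per type, called members (up to 5 per direction, largest first), and up to 4 called pathway genes per comparison; others named were chosen after their values were seen. Members and lists were chosen with earlier results of these data known. Alternatives were DESeq2 1.42.0, other filters, splits and cell sets, leaving out plates, and, added after seeing the data, robust edgeR and limma 3.58.1.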

Additional observations from a re-analysis of the deposited data

Results flagged for a closer look

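Of 96 groups of 4 plates checked, 11 had 1 plate far from the other 3, by Dixon's test at the 95% level, which chance meets in about 1 in 20 groups. These groups share plates and genes, so they are not independent. In levels, H3 stood at 79.4 CPM on LC189 against 43.6 to 45.5 on the other LC plates. In plate ratios on the log2 scale, H4 for CD150 was 0.93 on LC189 (others 0.04 to 0.18), H2B for CD135 was −1.75 on LCE408 (others 0.22 to 0.52), and H1 for Dach1-GFP was −0.025 on LC187 (others 0.24 to 0.28). For Dach1-GFP on LCE410 all members and H2A were both at 0.54 (others 0.11 to 0.17 for all members). In S list cells against neither, all members were at 1.19 and H2A at 1.33 on LC187 (others 0.87 to 0.89 and 1.02 to 1.05), and H4 was at −0.28 on LCE407 (others 1.13 to 1.22). In S against G2M list cells, all members were at −0.94 on LC187 (others −1.48 to −1.40) and H1 at −1.64 on LC188 (others −0.61 to −0.48).

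Of 36 tests of a difference between LCE and LC plates in the sums, 11 passed by edgeR. All members and H2A differed by 0.90 and 0.95 for CD150, by 0.44 and 0.46 for CD135, by −0.75 and −0.87 for S list cells against neither, by 0.34 and 0.26 for G2M list cells against neither, and by −1.10 and −1.15 for S against G2M list cells. H2B differed by 1.36 for G2M list cells against neither. The sets differ in depth as well, and depth and set cannot be told apart.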

How the results depend on the processing

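Values are log2 differences of all members summed. Among cells low for both cycle lists they were −0.09 for forward scatter, −0.40 for side scatter, 0.33, −0.22 and −0.53 for CD150 (LC, LCE and their difference), 0.17 and 0.26 for CD135 (LCE, difference), and 0.17 and −0.10 for Dach1-GFP (LC, LCE). Plate ratios there were −0.05, −0.42, 0.06 for CD150 and 0.00 for Dach1-GFP. Calls lost with robust edgeR were CD150 LC 0.56 and difference 0.90, CD135 LCE 0.34 and difference 0.44, Dach1-GFP 0.30 and 0.22, S list against neither LCE 0.22 and difference −0.75, and the differences for G2M list against neither, 0.34, and S against G2M list, −1.10. With limma the same were 0.52, 0.95, 0.41, 0.53, 0.33, 0.21, 0.31, −0.71, 0.40 and −1.14, and S against G2M list on LC plates −1.22. With DESeq2 CD135 LCE was 0.34 and the difference 0.46, Dach1-GFP 0.30 and 0.22, S list LCE 0.14 and difference −0.81, and the G2M list difference 0.32. Without the replicate block they were, in the order given for robust edgeR, 0.53, 0.91, 0.32, 0.43, 0.31, 0.23, 0.25, −0.72, 0.38 and −1.10, all lost. Split at the median, CD135 was −0.09 on LC plates (called), 0.08 on LCE plates and 0.18 for the difference, Dach1-GFP LCE 0.04, and the plate ratios −0.02 for CD135 and 0.13 for Dach1-GFP. With no filter CD135 LC was −0.10 and called. Corrected for scatter, side scatter was 1.44, CD150 LCE 0.75, CD135 LCE −0.08 and Dach1-GFP LCE −0.33. Thinned, the S list difference was −0.00 and the G2M list difference 0.31. Without other lineages the Dach1-GFP difference was 0.16 and the G2M list difference 0.02. H1 for forward scatter was −0.37 in low-cycle cells, and H2B in G2M list cells on LC plates 0.07 without Hist1h2bc. The causes were not tested.

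Leaving out each plate gave 2.33 to 2.50 for forward scatter, 1.91 to 2.24 for side scatter, 0.48 to 0.63, 1.37 to 1.53 and 0.80 to 0.98 for CD150 (LC, LCE, difference), −0.15 to −0.00, 0.20 to 0.48 and 0.31 to 0.59 for CD135, and 0.26 to 0.39, 0.13 to 0.27 and −0.17 to −0.03 for Dach1-GFP. S list against neither gave 0.87 to 0.99, 0.05 to 0.40 and −0.92 to −0.56, G2M list against neither 2.23 to 2.30, 2.44 to 2.70 and 0.17 to 0.44, and S against G2M list −1.43 to −1.25, −2.53 to −2.31 and −1.20 to −0.99. Plate ratios of S list against neither gave 0.45 to 0.71. CD135 was called on LC plates without LC190, and lost on LCE plates without LCE409; its difference was lost without LC187, LCE409 or LCE407, and the G2M list difference without LCE410. Genes called fell from 1617 to 464 with DESeq2 and 645 without the block for forward scatter, from 672 to 134 with DESeq2 for side scatter, from 77 to 30 (DESeq2) and 5 (no block) for CD150 on LC plates, and from 452 to 60 and 49 on LCE plates.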
